A study of Mus musculus with 14 samples.

Results

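The genes described here were 38 mouse genes of the endoplasmic reticulum (ER) folding machinery and of the unfolded protein response: 14 chaperones and co-chaperones, 9 oxidoreductases and prolyl isomerases, 8 genes of ER-associated degradation, 4 genes of translocation and ER export, and 3 sensors and transcription factors. They were found on the array by their gene symbols, and all 38 had a probe set assigned to a single gene, among 18193 such genes on the array. A gene with several such probe sets was read from the brightest one, judged by its average over the 14 arrays. Expression was measured in the duodenal mucosa of male C57BL6 mice with Affymetrix MOE 430 v2.0 arrays.

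The study compared 6 fed groups and 1 fasting group. The fed mice received a high-fat (HF) meal, with 60% of calories from fat, or a low-fat (LF) meal, with 10%, and were killed 30 min, 1 h or 3 h after the meal began. These groups are called HF30min, HF1h, HF3h, LF30min, LF1h and LF3h. All mice, the fasting group included, were 12 wk-old when obtained, had eaten the LF diet during acclimation and had been fasted for 12 h. Fed mice ate freely until they were killed, so the time says when the meal began and not when it ended. The mucosa was scraped from the flushed duodenum. Each group was 1 pool of RNA from 20 mice and was hybridised to 2 arrays as technical replicates, so the errors and p-values below covered the spread between arrays and not between mice. All comparisons with fasting used the same 2 fasting arrays.

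Proteins that enter the secretory pathway are threaded into the ER through the Sec61 channel, folded by chaperones such as BiP (Hspa5) and GRP94 (Hsp90b1), and cross-linked by disulfide isomerases. Molecules that fail to fold are passed back to the cytosol through the HRD1 complex (Syvn1, Sel1l and the derlins) and degraded. When unfolded protein accumulates, the sensors IRE1 (Ern1), ATF6 and PERK start the unfolded protein response, in which XBP1 and ATF6 raise the transcription of chaperone and degradation genes through the ER stress response element (ERSE). The duodenal mucosa holds enterocytes, which secrete lipoproteins and digest food at their surface, along with goblet and Paneth cells, which secrete heavily, and the secretory Brunner glands lie beneath it.

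Because several chaperones were higher together after both meals, the promoter windows of the genes were searched for this element. The windows were RefSeq sequences of build GRCm38.p6, and each ran 250 bases before to 50 bases after a start site. Windows were at hand for 32 of the 38 genes. The ERSE was searched on both strands as CCAAT, any 9 bases and CCACG. It was present in 9 of these 32 genes (28.1%), against 37 of all 27025 genes with a window (0.137%). The set was chosen as genes of the response that works through this element, so a higher share was built into the choice. It is not a result of the arrays. The 10 matches, read 5′ to 3′ on the strand that carries the motif with the defined letters in capitals and on the genome strand given, were the following.
Hspa5, chr2:34772025-34772043, plus strand: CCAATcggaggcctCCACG
Hsp90b1, chr10:86705638-86705656, minus strand: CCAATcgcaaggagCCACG
Hsp90b1, chr10:86705533-86705551, plus strand: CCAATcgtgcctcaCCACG
Creld2, chr15:88819520-88819538, minus strand: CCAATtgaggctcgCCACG
Pdia6, chr12:17266491-17266509, plus strand: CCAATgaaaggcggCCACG
Derl3, chr10:75893242-75893260, minus strand: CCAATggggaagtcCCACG
Calr, chr8:84847075-84847093, plus strand: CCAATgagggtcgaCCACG
Canx, chr11:50325800-50325818, minus strand: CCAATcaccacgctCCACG
Dnajc3, chr14:118937827-118937845, plus strand: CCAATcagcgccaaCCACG
Syvn1, chr19:6046532-6046550, plus strand: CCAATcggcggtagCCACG

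These elements lay upstream of the start sites, with the nearest at 44 bases (Syvn1) and the farthest at 212 bases (Hsp90b1, which held a pair). Hspa5, the gene called in the most fed pools, and Creld2, the gene with the largest difference, are shown with their whole windows, on the strand of the gene and with the element in capitals. The Hspa5 window is chr2:34771840-34772139 (plus strand) and the Creld2 window chr15:88819396-88819695 (plus strand).
Hspa5: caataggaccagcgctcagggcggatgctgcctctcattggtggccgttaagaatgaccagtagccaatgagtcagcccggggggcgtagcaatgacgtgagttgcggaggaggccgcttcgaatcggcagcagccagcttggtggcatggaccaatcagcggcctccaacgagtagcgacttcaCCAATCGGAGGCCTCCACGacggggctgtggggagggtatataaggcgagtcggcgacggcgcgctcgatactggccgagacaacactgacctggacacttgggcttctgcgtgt
Creld2: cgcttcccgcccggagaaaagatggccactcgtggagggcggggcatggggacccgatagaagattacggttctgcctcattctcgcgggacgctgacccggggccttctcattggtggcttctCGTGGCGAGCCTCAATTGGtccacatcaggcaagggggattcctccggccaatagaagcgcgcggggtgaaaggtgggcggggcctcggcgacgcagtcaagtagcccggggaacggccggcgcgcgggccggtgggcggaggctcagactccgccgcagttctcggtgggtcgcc

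Other elements were rarer among these genes. ERSE-II, searched as ATTGG, any single base and CCACG, was in the windows of Dnajb11 and Herpud1 (6.25% of the 32 genes, against 0.0444% of all). The core of the unfolded protein response element, TGACGTGG, was in the windows of Sec24d and Txndc5 (6.25%, against 0.714%). These shares, too, reflect how the set was chosen. A match is a run of letters in a window of fixed length, and binding was not measured. No window was at hand for Hspa13, Hyou1, Manf, Derl1, Sec61a1 and Atf6.

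Values are given as log2 intensities after Robust Multiarray Analysis (RMA), and differences as log2 differences, fed minus fasting unless stated otherwise. A difference was called at an adjusted p under 0.05 in limma, with the Benjamini-Hochberg adjustment over all 45037 probe sets. The array medians lay between 4.47 and 4.55, and replicate arrays correlated at 0.9958 to 0.9971. Mean values of the 38 genes over the 14 arrays ran up to 12.58 (P4hb), with a median of 9.32, and Fkbp11 alone lay below 6, at 5.58. Enterocyte markers, measured for 14 of 15 listed genes, had a median level of 12.25 to 12.44 in every array. The 3′ minus 5′ difference of the beta-actin control probe sets, read for RNA quality, was 0.40 at LF3h and 0.43 to 0.53 in the other pools.

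At 3 h after both meals a core of folding genes was higher than at fasting, and none of the 38 genes was lower. At HF3h, 14 of 38 genes were higher, where 2.97% of all genes were called higher. At LF3h, 8 of 38 were higher, where 3.13% of all genes were called higher. All 8 were among the 14. The median difference over the 38 genes was 0.28 at HF3h, with 35 positive, and 0.16 at LF3h, with 32 positive, while the medians over all genes were 0.00 and -0.02. Well-expressed genes were called more often, so the count was also read among genes with a mean of at least 8: there 10 of 30 were higher at HF3h, against 7.19% of 3128 genes, and 6 of 30 at LF3h, against 6.75%. In a mucosal extract, more cells of a type and more RNA per cell cannot be told apart, nor can fewer cells and less RNA per cell. The map of differences by gene and pool shows this spread over roles.

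**Figure D1:**
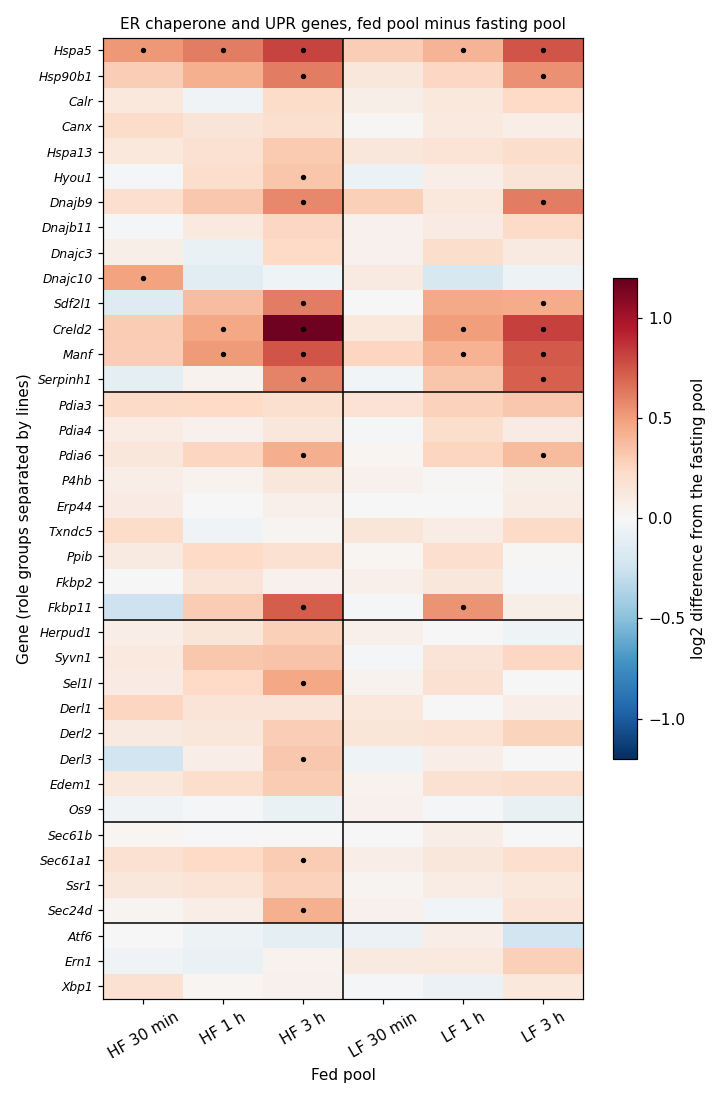
Colour shows the log2 difference of each fed pool from the fasting pool for the 38 genes (down the page, role groups separated by lines) in the 6 fed pools, 2 arrays each, and a dot marks an adjusted p under 0.05. The darkest red cells lie at 3 h in the chaperone rows, with Creld2 at HF3h the largest at 1.17.

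Chaperones of the ER lumen made up most of the genes that were higher, with 8 of 14 called at HF3h (median 0.45) and 7 of 14 at LF3h (median 0.34). Hspa5 encodes BiP, the HSP70 chaperone that binds nascent chains and holds the stress sensors inactive. Its 2 values were 11.12 and 11.25 at fasting, 11.69 and 11.72 at HF30min, 11.76 and 11.83 at HF1h, and 12.01 and 11.99 at HF3h. After the LF meal they were 11.53 and 11.44 at LF30min, 11.59 and 11.60 at LF1h, and 11.92 and 11.95 at LF3h. Every fed array was above both fasting arrays, and within each meal the pools were ordered by time. The difference from fasting was 0.82 ± 0.08 at HF3h (SE, 1.76-fold, adjusted p = 3.7e-05) and 0.75 ± 0.08 at LF3h (1.68-fold, adjusted p = 0.00013). A less abundant Hspa5 probe set differed by 0.28 at HF3h and -0.03 at LF3h and was not called, while another gave 0.98 and 0.94.

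Creld2, an ER protein with disulfide isomerase activity that is a known target of ATF6, had the largest difference of the set. Its values were 8.83 and 8.81 at HF3h, 8.40 and 8.52 at LF3h, and 7.65 and 7.64 at fasting. The 3 pools did not overlap, and the HF3h pool was the highest. The gene was 2.25-fold higher at HF3h than at fasting (1.17 ± 0.08, adjusted p = 1.3e-06), the 1 gene of the 38 past 2-fold (0.484% of all genes were called past 2-fold in either direction), and 1.76-fold higher at LF3h (0.82 ± 0.08, adjusted p = 6.1e-05). The Creld2 element printed above also lay in the window of Alg12, a gene of glycan assembly on the opposite strand. Alg12 differed from fasting by 0.06 at HF3h (adjusted p = 0.88) and by 0.04 at LF3h (adjusted p = 0.92) at a mean level of 5.80.

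Manf, a small ER protein that binds BiP and can be secreted, was also higher after both meals. It had 10.24 and 10.17 at HF3h, 10.18 and 10.18 at LF3h, and 9.41 and 9.49 at fasting. The HF3h and LF3h values overlapped and both stood clear of fasting, by 0.76 ± 0.08 (adjusted p = 7.7e-05) and 0.73 ± 0.08 (adjusted p = 0.00018). Serpinh1, the collagen chaperone HSP47, had 7.44 and 7.33 at HF3h, 7.48 and 7.53 at LF3h, and 6.79 and 6.78 at fasting. Here LF3h was the highest pool, with a difference of 0.72 ± 0.10 (adjusted p = 0.00083) against 0.60 ± 0.10 at HF3h (adjusted p = 0.0021). A second Serpinh1 probe set gave 0.39 at HF3h and 0.94 at LF3h, and by that probe set HF3h was lower than LF3h (-0.55, adjusted p = 0.0019).

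Hsp90b1, the ER form of HSP90, had 10.17 and 10.25 at HF3h, 10.13 and 10.16 at LF3h, and 9.48 and 9.71 at fasting. Both fasting arrays lay below every array of the HF pools and of LF3h, and a second probe set was called at HF30min as well (0.41, adjusted p = 0.029). Dnajb9 (ERdj4), a J-domain partner of BiP, had 10.32 and 10.44 at HF3h, 10.42 and 10.42 at LF3h, and 9.80 and 9.81 at fasting. Sdf2l1, which joins the J protein Dnajb11 in a BiP co-chaperone complex, had 7.50 and 7.51 at HF3h, 7.40 and 7.27 at LF3h, and 6.92 and 6.86 at fasting. These 3 genes differed from fasting by 0.62, 0.57 and 0.61 at HF3h and by 0.55, 0.62 and 0.44 at LF3h, all called.

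**Figure D2:**
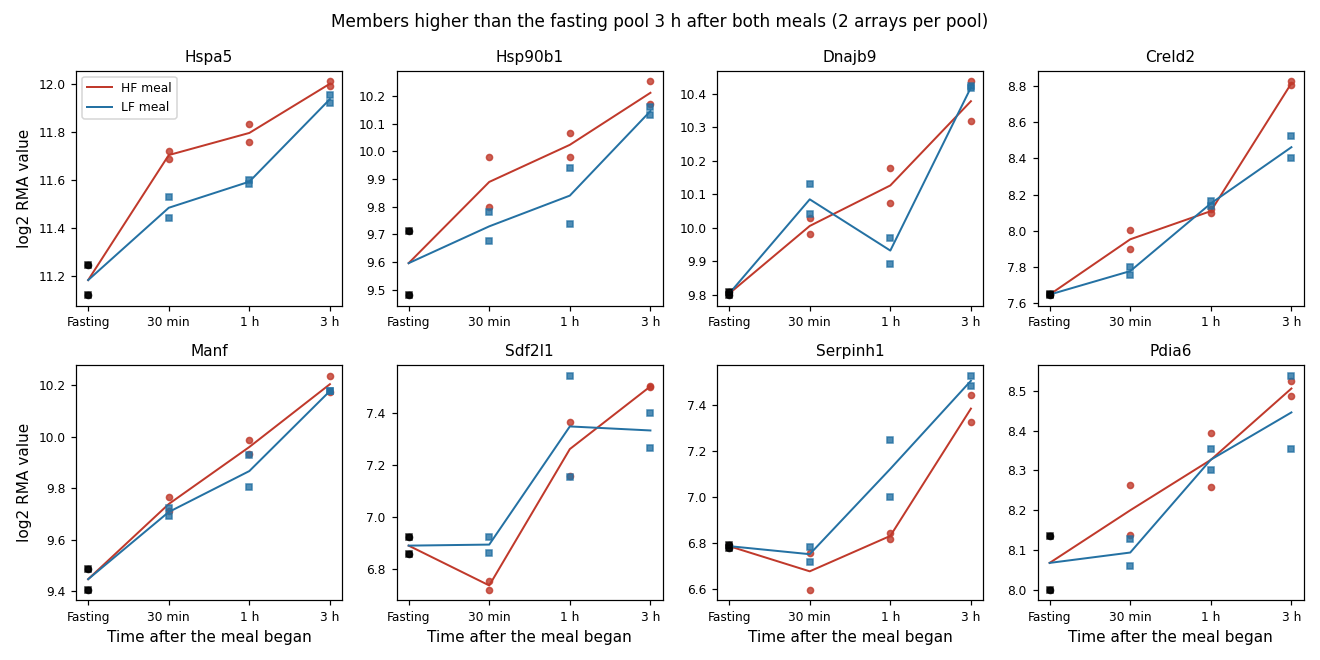
Each panel plots log2 RMA values against time after the meal began for 1 of the 8 genes higher at 3 h after both meals, with points for the 2 arrays of a pool and lines through the pool means (HF circles, LF squares, fasting black). For Hspa5 the means climb at each step after either meal, and all points at 3 h lie above the fasting points in every panel.

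Of the other chaperones, Hyou1, the nucleotide exchange factor of BiP, was higher at HF3h only (0.33 ± 0.09, adjusted p = 0.043) and stood at 0.16 ± 0.09 at LF3h. The lectin chaperones of the glycoprotein cycle were not called by the probe set used: Calr had 0.22 at HF3h and 0.24 at LF3h, and Canx 0.19 and 0.08. A dimmer Canx probe set was called at LF3h (0.40, adjusted p = 0.024) and had 0.30 at HF3h (adjusted p = 0.085). Hspa13, Dnajb11 and Dnajc3, an HSP70-like protein and a pair of J proteins, had 0.31, 0.25 and 0.24 at HF3h and 0.21, 0.23 and 0.10 at LF3h without passing the test. A less abundant Hspa13 probe set was called, at 0.70 at HF3h and 0.62 at LF3h. Of the dimmer Dnajc3 probe sets, a pair was called at HF3h (0.42 and 0.36, adjusted p = 0.031 and 0.029) and another, at a mean level of 3.87, at LF3h (0.54, adjusted p = 0.043). Dnajc10 (ERdj5), a reductase that serves degradation, was the exception in timing. It had 7.79 and 7.85 at HF30min and 7.20 and 7.47 at fasting, a difference of 0.48 ± 0.10 with an adjusted p of 0.05 after rounding, and it was -0.06 at both HF3h and LF3h.

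Among the oxidoreductases and prolyl isomerases, 2 of 9 were higher at HF3h and 1 of 9 at LF3h. Pdia6, a disulfide isomerase that also acts on IRE1, had 8.53 and 8.49 at HF3h, 8.35 and 8.54 at LF3h, and 8.13 and 8.0 at fasting. Both fed pools were above fasting, by 0.44 ± 0.10 (adjusted p = 0.014) and 0.38 ± 0.10 (adjusted p = 0.037). Fkbp11, a prolyl isomerase common in secretory cells, had 6.17 and 6.04 at HF3h, 5.37 and 5.53 at LF3h, and 5.55 and 5.21 at fasting. It was higher at HF3h by 0.72 ± 0.12 (adjusted p = 0.0023), and the LF3h arrays lay within the fasting range. The level was low, and the other Fkbp11 probe sets, which were dimmer, gave 0.12 and 0.07 at HF3h without a call. P4hb, the founding disulfide isomerase and the brightest gene of the set, kept to 12.51 to 12.67 in all 14 arrays. Pdia3, Pdia4, Erp44, Txndc5, Ppib and Fkbp2 lay between 0.04 and 0.19 at HF3h and between -0.03 and 0.32 at LF3h, and none was called.

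Of the genes of ER-associated degradation, 2 of 8 were called at HF3h and 0 of 8 at LF3h in limma, where 2 of the 8 had an unadjusted p under 0.05. Sel1l, the adaptor that holds the HRD1 ubiquitin ligase complex together, had 9.98 and 9.87 at HF3h, 9.43 and 9.51 at LF3h, and 9.39 and 9.54 at fasting. The LF3h values fell inside the fasting range, and HF3h was higher than fasting by 0.46 ± 0.09 (adjusted p = 0.0085). Its 4 other probe sets were also called at HF3h, at 0.39 to 0.59. At LF3h they ran from 0.09 to 0.69, and 2 of them were called there (0.69, adjusted p = 0.001, and 0.38, adjusted p = 0.049). Derl3, a derlin of the retrotranslocation channel, had 7.30 and 7.38 at HF3h, 7.06 and 7.0 at LF3h, and 7.01 and 7.04 at fasting, a difference of 0.32 ± 0.08 at HF3h (adjusted p = 0.036). Edem1, which trims mannose from misfolded glycoproteins, Derl2, Herpud1, a stress-induced scaffold of the complex, and Syvn1, the HRD1 ligase itself, stood at 0.29 to 0.35 at HF3h without passing (adjusted p 0.052 to 0.24). A second Herpud1 probe set of like brightness was called at HF3h (0.43, adjusted p = 0.006) and had -0.10 at LF3h. Derl1 had 0.15 and the lectin Os9 had -0.08.

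Of the 4 genes of translocation and export, 2 were higher at HF3h and none at LF3h, where 1 had an unadjusted p under 0.05. Sec24d, a cargo-binding subunit of the COPII coat, had 10.58 and 10.52 at HF3h, 10.28 and 10.29 at LF3h, and 10.10 and 10.14 at fasting. Its HF3h arrays were the highest of all 14, and it was higher than fasting by 0.43 ± 0.08 (adjusted p = 0.0049), against 0.17 ± 0.08 at LF3h. Sec61a1, the pore-forming subunit of the translocon, had 10.53 and 10.44 at HF3h, 10.35 and 10.41 at LF3h, and 10.14 and 10.22 at fasting. It was called at HF3h (0.30 ± 0.08, adjusted p = 0.046) and not at LF3h (0.20 ± 0.08), and 2 of its dimmer probe sets were called after both meals, at 0.46 and 0.56 at HF3h and 0.41 and 0.68 at LF3h. Sec61b, another subunit of the same channel, was flat at 9.63 to 9.74 in all arrays, and Ssr1, of the translocon-associated complex, had 0.27 at HF3h, while a dimmer Ssr1 probe set was called there (0.42, adjusted p = 0.032).

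By the probe sets used, Atf6, Ern1 and Xbp1 missed the threshold in all 13 comparisons. The sensor PERK (Eif2ak3) was not a gene of the set. It was called higher at HF3h, as given below with the further genes. Xbp1, the transcription factor whose mRNA is spliced by IRE1, had 11.13 and 11.24 at HF3h, 11.24 and 11.28 at LF3h, and 11.09 and 11.19 at fasting. The intervals of its difference ran over -0.15 to 0.25 at HF3h and -0.07 to 0.32 at LF3h, so a change of the size seen for Hspa5 lay outside them for the total Xbp1 probe set. Splicing of Xbp1 was not measured. A second abundant Xbp1 probe set was called at LF3h (0.38, adjusted p = 0.036) and had 0.33 at HF3h (adjusted p = 0.059). Ern1 had 8.19 and 8.31 at HF3h, 8.49 and 8.48 at LF3h, and 8.20 and 8.21 at fasting. Among Atf6, Ern1 and Xbp1 it had the largest difference from fasting, 0.28 ± 0.08 at LF3h (adjusted p = 0.064). A dimmer Ern1 probe set gave 0.40 there (adjusted p = 0.039) and was lower at HF3h than at LF3h (-0.46, adjusted p = 0.039). Atf6 had 6.52 and 6.49 at HF3h, 6.43 and 6.33 at LF3h, and 6.69 and 6.53 at fasting, with differences of -0.11 and -0.23 that were not called.

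**Figure D3:**
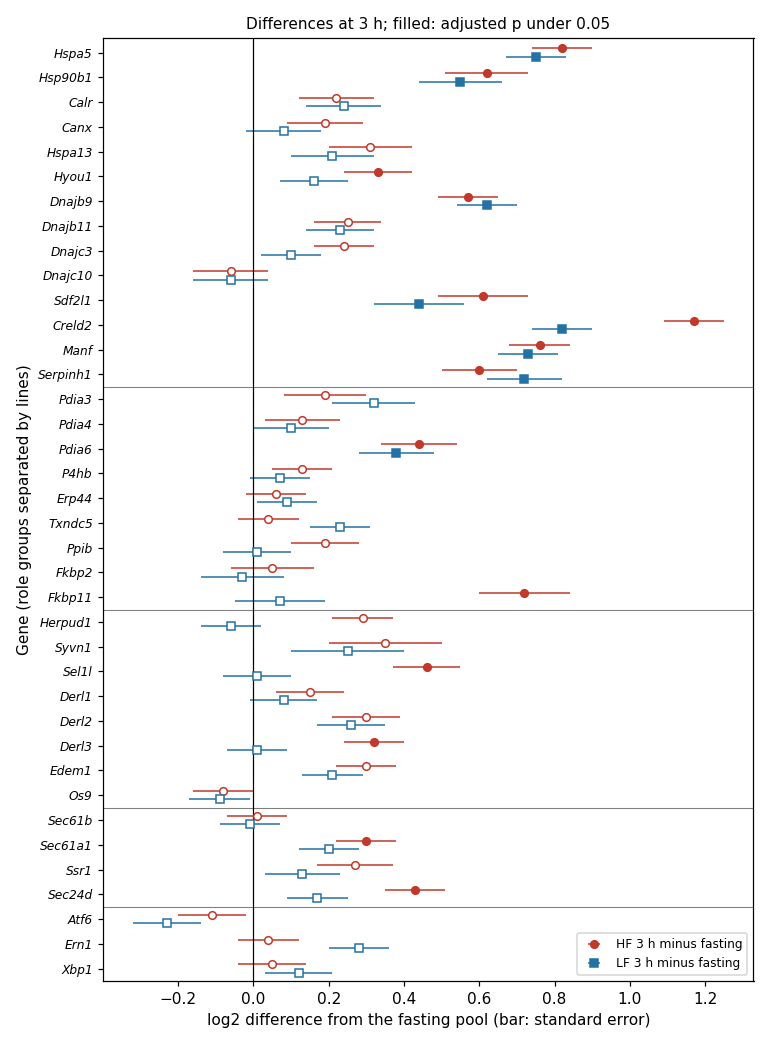
Points give the log2 difference from the fasting pool at HF3h (circles) and LF3h (squares) for the 38 genes, with bars for the standard error, and filled points have an adjusted p under 0.05. The 8 genes filled for both meals reach from 0.38 to 1.17, while Fkbp11, Sel1l and Derl3 are filled at HF3h and lie near 0 at LF3h.

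A few genes were already called before 3 h. At HF30min, 2 of 38 genes were higher (0.759% of all genes), Hspa5 by 0.52 ± 0.08 (adjusted p = 0.0062) and Dnajc10. At HF1h, 3 of 38 were higher (0.649% of all genes): Hspa5 by 0.61, Manf by 0.51 and Creld2 by 0.46. At LF30min none was called in limma (0.335% of all genes were higher), with 3 at an unadjusted p under 0.05. At LF1h, 4 of 38 were higher (1.18% of all genes): Fkbp11 by 0.54, Creld2 by 0.50, Manf by 0.42 and Hspa5 by 0.41. Hspa5, Creld2 and Manf were therefore called at 1 h and at 3 h after both meals. The Fkbp11 mean at LF1h was low, at 5.92, and its dimmer probe sets differed from fasting by 0.07 and -0.1 there. More genes had an unadjusted p under 0.05 in either direction: 11 at HF30min, 14 at HF1h and 12 at LF1h (2388, 2184 and 2067 of all 18193 genes). Differences were positive for 29, 30 and 31 of the 38 (47.3%, 53.5% and 48.1% of all genes). Over the 7 pools, 13 of 38 genes differed by limma's F test, where 9.76% of all genes and 19.1% of genes with a mean of at least 8 did. The highest pool was HF3h for 21 of the 38 genes and LF3h for 6, and the lowest was fasting for 16.

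Steps between neighbouring times within a meal share no fasting array. Between HF3h and HF1h, 3 of 38 genes were higher at the later time (1.22% of all genes): Creld2 by 0.71 ± 0.08 (adjusted p = 0.00035), Serpinh1 by 0.55 ± 0.10 (adjusted p = 0.008) and Sec24d by 0.35 ± 0.08 (adjusted p = 0.039). Between LF3h and LF1h, 2 were higher at the later time (1.08% of all genes), Dnajb9 by 0.49 ± 0.08 (adjusted p = 0.0071) and Hspa5 by 0.34 ± 0.08 (adjusted p = 0.045). Between HF1h and HF30min, Fkbp11 was higher at the later time by 0.56 ± 0.12 (adjusted p = 0.045; 0.572% of all genes were higher) and Dnajc10 was lower, at -0.60 ± 0.10 (adjusted p = 0.014; 0.737% were lower). Between LF1h and LF30min no gene of the set was called in limma (0.511% of all genes were higher), with 7 at an unadjusted p under 0.05. Without the second HF1h or the first HF3h array, 1 gene was called between HF3h and HF1h. Without either LF3h array none was called between LF3h and LF1h, and without any other single array but a fasting one, 1 was. The Hspa5 step from LF1h was called in 0 of the 14 refits (adjusted p up to 0.24) and the Dnajb9 step in 11. Between HF1h and HF30min the count was 0 without either HF30min array or the first HF1h array, and 1 without the second HF1h array or any HF3h or LF3h array. Between LF1h and LF30min it was 1 without either fasting array or the first LF1h array.

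Between the 2 meals at 3 h, most genes of the set were not called. In the direct comparison of HF3h with LF3h, 3 of 38 genes were higher at HF3h and none lower, where 1.19% of all genes were called higher. These were Fkbp11 (0.66 ± 0.12, adjusted p = 0.013), Sel1l (0.46 ± 0.09, adjusted p = 0.024) and Creld2 (0.35 ± 0.08, adjusted p = 0.045). For Hspa5 the difference was 0.06 with a 95% interval of -0.11 to 0.24, for Manf 0.03 (-0.15 to 0.20), for Hsp90b1 0.07 (-0.16 to 0.29) and for Dnajb9 -0.04 (-0.22 to 0.14). Differences as large as those from fasting lay outside these intervals, and smaller ones could not be resolved. Derl3 (0.31, adjusted p = 0.075), Herpud1 (0.34, adjusted p = 0.058) and Sec24d (0.26, adjusted p = 0.12) did not pass, so that their being called at HF3h and not at LF3h, or in neither, does not show a difference between meals. The second Herpud1 probe set was called higher at HF3h than at LF3h, at 0.53 (adjusted p = 0.0039). At 30 min and at 1 h no gene of the set differed between HF and LF in limma, with 5 at an unadjusted p under 0.05 at each time, where 0.55% and 0.225% of all genes were called in either direction.

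The calls were unequal in how far they rested on single arrays. Hspa5, Dnajb9, Creld2, Manf and Serpinh1 remained called at both HF3h and LF3h whichever of the 14 arrays was left out, and so did Fkbp11 at HF3h. Without the first fasting array the counts were 8 at HF3h and 5 at LF3h. Without the second they were 9 at HF3h, and without the first HF3h array 8. Leaving out either LF3h array gave 5 at LF3h. At HF3h, Hyou1 stayed called in 2 of the 14 refits and Sec61a1 in 0, with adjusted p up to 0.26 and 0.27. Of the 3 genes that differed between HF3h and LF3h, Creld2 was called in 0 of the 14 refits (adjusted p up to 0.22), Sel1l in 10 and Fkbp11 in 11. The count of genes fell to 0 without the first or second LF3h array or the first HF3h array, and to 1 without the second HF3h array. The earlier counts rested more on single arrays. At HF30min no call was left without the first fasting array or either HF30min array, and 1 without any other array but the second fasting one. At HF1h 1 was left without the first fasting or the second HF1h array. At LF1h the count was lower without either fasting array or either LF1h array. Of the calls made at LF1h with all arrays, only that of Creld2 was kept without the first LF1h array.

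The ERSE occurred in windows of genes of each response. Of the 7 genes with a window that were higher at 3 h after both meals, 4 held an ERSE (Hspa5, Hsp90b1, Creld2 and Pdia6). So did 1 of 4 called at HF3h and not at LF3h (Derl3) and 4 of 21 called at neither (Calr, Canx, Dnajc3 and Syvn1). Outside the set, 28 genes had an ERSE in a window and 11 of these were measured. None of the 11 was called at HF3h or LF3h in limma, and 1 had an unadjusted p under 0.05 at each. Mean levels were above 6 only for Ero1b (9.13), Spats2l (7.51) and Pan2 (6.96), and ran from 3.51 to 5.80 for the rest. Well-expressed genes were called more often, so the missing calls do not show that these genes failed to respond. In limma, Ero1b had 0.28 at HF3h (adjusted p = 0.072) and 0.01 at LF3h. Spats2l had -0.17 and -0.22, and Pan2 -0.03 and 0.04.

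Other genes of the same pathways were counted from lists. Of 15 further genes of the unfolded protein response, 5 were higher at HF3h, 2 at LF3h and 4 at LF1h, and none was lower at those times. Over all genes, 2.97%, 3.13% and 1.18% were called higher there. Among genes with a mean of at least 8 the shares were 7.19%, 6.75% and 2.81%. Trib3, a pseudokinase induced by ATF4 and CHOP, rose by 0.74 ± 0.12 at HF3h (adjusted p = 0.0016) and by 1.08 ± 0.12 at LF3h (adjusted p = 0.00013), at a low level of 5.83 at fasting. Atf4, the transcription factor of the PERK branch, rose by 0.42 at HF3h and 0.54 at LF3h, and by 0.78 at LF1h. Ddit3, which encodes CHOP, was higher by 0.43 at HF3h and by 0.57 at LF1h, and Eif2ak3, which encodes PERK, by 0.44 at HF3h. Bhlha15 (Mist1), a factor of secretory and acinar cells, was higher by 0.59 at HF3h, and Cebpb by 0.66 at LF1h. Early on, Atf4 was the 1 gene of the list called at LF30min (0.51) and at HF1h (0.52), and Creb3l1 the 1 called at HF30min (0.79). In the same order of pools, 0.335%, 0.649% and 0.759% of all genes were called higher.

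Of 23 further folding genes, 5 were higher and 1 lower at HF3h, and 1 was higher at LF3h. Over all genes, 2.97% were called higher and 3.7% lower at HF3h, and 3.13% higher at LF3h. Among genes with a mean of at least 8, 7.19% were higher at HF3h and 6.75% at LF3h. Ero1a, the oxidase that recharges the disulfide isomerases, had a mean of 8.66 at HF3h, 8.93 at LF3h and 7.93 at fasting, and was called at both 3 h times. Pdia2, the disulfide isomerase of the pancreas, was higher by 1.53 at HF3h and by 1.42 at LF1h, lower at HF30min (-0.86), and not called at LF3h. Tor1a, Mogs and Pdia5 were the others higher at HF3h, by 0.45 to 0.56, and Mzb1, a plasma cell chaperone, was lower (-0.41). Of 38 measured genes of translocation, signal peptide removal and transport between ER and Golgi, 5 were higher at HF3h and 4 at LF3h. Kdelr3, a receptor that returns escaped chaperones to the ER, rose by 1.34 ± 0.12 at HF3h (adjusted p = 8.7e-06) and 0.61 ± 0.12 at LF3h (adjusted p = 0.0077) at a mean of 5.40 at fasting, and HF3h exceeded LF3h by 0.73 (adjusted p = 0.0045). Srp68, a subunit of the signal recognition particle, rose by 0.43 at HF3h and 0.47 at LF3h, and the signal peptidase subunit Spcs2 by 0.33 and 0.44. The COPII genes Sec23b and Sec24a were higher at HF3h (0.38 and 0.37), and Lman2, a cargo lectin, at LF3h (0.38). Of 14 measured degradation genes, Ube2g2, a ubiquitin-conjugating enzyme of the ER, was called at HF3h (0.49) and none at LF3h in limma, where 6 had an unadjusted p under 0.05. For this list, 1 of 14 lay near the 7.19% called higher at HF3h among genes with a mean of at least 8.

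**Figure D4:**
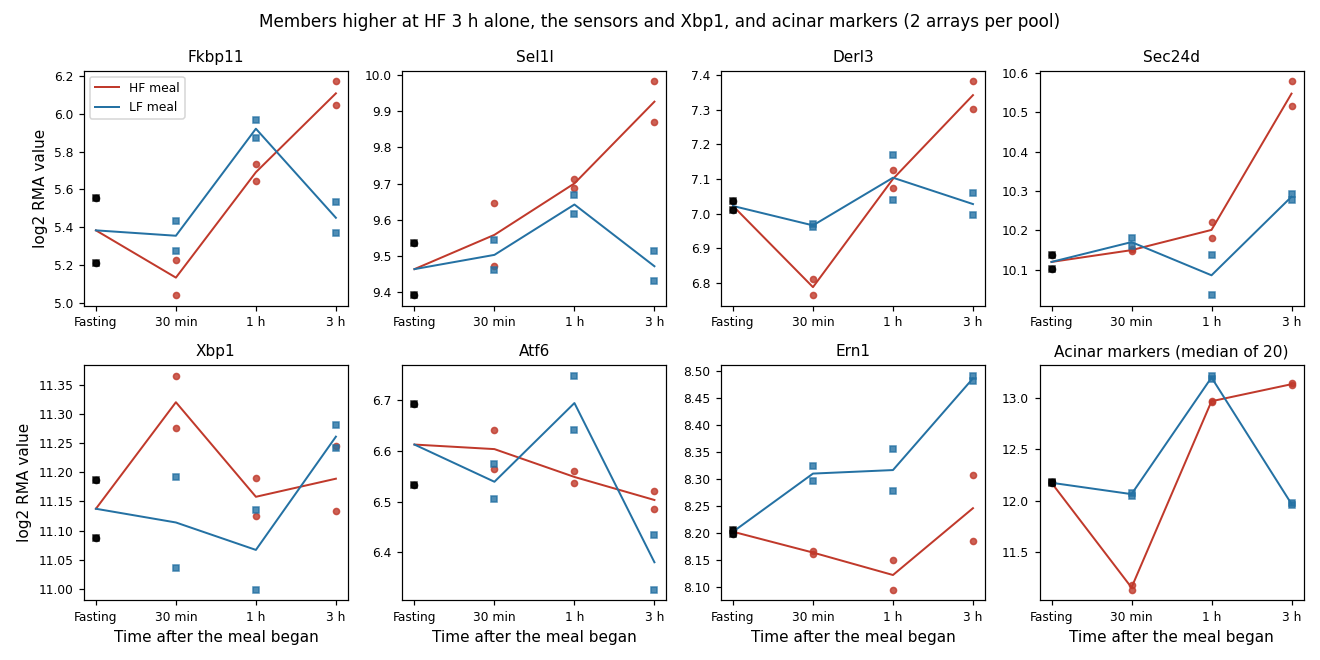
Panels plot log2 RMA values against time after the meal began for 4 genes called higher at HF3h and not at LF3h, for Xbp1, Atf6 and Ern1, and for the median of 20 acinar cell markers. Points show the 2 arrays of a pool and lines run through the means (HF circles, LF squares, fasting black). Fkbp11 and the acinar markers are both high at LF1h and HF3h and lowest at HF30min, while the pool means of Xbp1, Atf6 and Ern1 span 0.25 to 0.36. At LF3h the Fkbp11 mean is 5.45, near 5.38 at fasting, and the acinar markers have a median difference of -0.24 from fasting.

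Markers of pancreatic acinar cells, which are rich in ER, moved strongly between pools. Of 24 listed genes 20 were measured, and none was at 0. Their summed linear value over the 2 arrays was 63890 to 63950 at HF30min, 138500 to 139300 at HF1h, 149100 to 149200 at HF3h, 94720 to 96110 at LF30min, 153800 to 154300 at LF1h, 85090 to 86140 at LF3h and 99540 to 99740 at fasting. At HF1h 17 of the 20 were higher than at fasting, at HF3h 18 (median 0.74) and at LF1h 18 (median 0.78), and at LF3h none was higher and 4 were lower (median -0.24). At HF30min 15 were lower (median -0.85). Over all genes, 0.649% were called higher at HF1h, 2.97% at HF3h and 1.18% at LF1h. Called lower were 2.28% at LF3h and 0.363% at HF30min. Fkbp11, Derl3, Sdf2l1 and Dnajb11 were lowest at HF30min and highest at HF3h, as Pdia2 was, while the summed acinar value was highest at LF1h. Dnajb11 did not differ over the pools by limma's F test (adjusted p = 0.219), and its pool means spanned only 0.27. The part of acinar RNA in any of the results was not tested.

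Markers of other cells had their own timing. Plasma and B cell markers, 12 measured of 15, had a median difference of -0.16 at HF3h with 1 lower (Mzb1, -0.41) and of 0.03 at LF3h with 1 higher, and their summed value was 19730 to 20080 at HF3h, 23270 to 23340 at LF3h and 22540 to 23090 at fasting. Stomach and Brunner gland markers, 11 measured of 12, were all higher at HF30min (median 2.08), 7 were higher at LF30min and 6 at HF3h (median 0.64), against 1 higher and 3 lower at LF3h. Their summed value was 7546 to 7637 at HF3h, 1742 to 1748 at LF3h and 1782 to 1803 at fasting. Goblet and Paneth cell markers (13) had 1 higher and 3 lower at HF3h and none called at LF3h in limma, nor at an unadjusted p under 0.05. Adipocyte markers (8) had 4 higher at HF3h (median 0.39) and 1 at LF3h, smooth muscle markers (10) none at either time, with 1 and 3 at an unadjusted p under 0.05, and enterocyte markers (14) 1 higher at HF3h and 1 lower at LF3h. Over all genes, 2.97% were called higher and 3.7% lower at HF3h, and 3.13% higher and 2.28% lower at LF3h. Called higher were 0.759% at HF30min and 0.335% at LF30min. The part of these cell types in the results was not tested.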

How the data were processed

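Log2 values of 14 Affymetrix MOE 430 v2.0 arrays were used as deposited: the authors had subtracted background and normalized probe set intensities by RMA, and the values were read as log2 because RMA gives that scale. SAGE and protein data were not analysed here. Of 45101 probe sets, 64 controls were left out. The platform annotation named 1 gene for 34945 probe sets, several for 932 and none for 9160. All 14 value columns were mapped to samples by the labels. The model, fitted with limma 3.58.1 in R 4.3.3, had a mean for each pool, 7 residual and 6.4 prior degrees of freedom. Its 13 comparisons and F test each had the Benjamini-Hochberg adjustment over all 45037 probe sets. The median standard error was 0.09 for the 38 genes and 0.11 for all probe sets. Figures were drawn with matplotlib 3.10.9 (Python 3.11.15).

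The genes and lists were chosen with earlier results of these data known. Per-array values were given, within each role, for the 4 genes with the largest called difference between fed and fasting or HF and LF pools, and for Hspa5, Xbp1, Atf6 and Ern1. Those of Hsp90b1, Dnajb9, Sdf2l1 and Dnajc10 were added with their values in view. Up to 2 genes per further list could be named, and other genes were named with their values in view. Alternatives were other thresholds, variance models, scalings, probe set choices, a filter at 6, fits on the compared arrays only, the replicate number as a block, and each array left out. On simulated data for HF3h against fasting (45037 probe sets), of 50 changed probe sets at each size the fit called 7 at a fold of 1.25, 31 at 1.5, 48 at 2 and 50 at 3. It made 11 false calls, and small changes were often missed there. Far fewer probe sets were changed than the 2510 called for HF3h against fasting, which makes the adjusted threshold stricter than in the data. The simulated recovery therefore does not measure how often the data miss such changes.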

Additional observations from a re-analysis of the deposited data

Results flagged for a closer look

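In the direct comparison of the HF3h and LF3h pools, 3 of the 38 genes were called, where 1.19% of all genes were called higher at HF3h. Each of these calls was lost in some refits with an array left out, and that of Creld2 in every refit. HF3h exceeded LF3h by 0.66 for Fkbp11 (SE 0.12, adjusted p = 0.013), by 0.46 for Sel1l (SE 0.09, adjusted p = 0.024) and by 0.35 for Creld2 (SE 0.08, adjusted p = 0.045). For each gene both HF3h arrays lay above both LF3h arrays. The less abundant probe sets of Fkbp11 gave 0.27 and 0.03 for the same comparison, and those of Sel1l gave 0.42 to -0.10, none of them called. Groups of 2 arrays are too small for a search for single outlying arrays.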

How the results depend on the processing

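None of the 41 differences called for single genes changed sign under any alternative. Under other settings they kept their call in 339 tests and missed the threshold with the same direction in 141, and with an array left out in 407 and 167. Of the 14 calls at HF3h, 6 remained whichever array was left out, as did 5 of 8 at LF3h.

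Counts of called genes with an array left out ran over 8 to 14 at HF3h, 5 to 8 at LF3h, 1 to 3 at HF1h, 0 to 4 at LF1h, 0 to 2 at HF30min, 0 to 2 for HF3h against LF3h, 1 to 3 for HF3h against HF1h, 0 to 2 for LF3h against LF1h, 0 to 2 for HF1h against HF30min, 0 to 1 for LF1h against LF30min and 9 to 14 across the pools.

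With an intensity trend in the variance model 24 genes were called at HF3h, 17 at LF3h, 9 at HF1h, 9 at HF30min, 7 at LF1h and 3 at LF30min, 7 for HF3h against LF3h, 2 for HF against LF at 1 h and 2 at 30 min, 9 for HF3h against HF1h, 10 for LF3h against LF1h, 6 for HF1h against HF30min, 4 for LF1h against LF30min and 26 across the pools. A robust variance model gave 1 at HF30min. With probe sets of at least 6 in a pool, which leaves fewer to adjust over, 16 were called at LF3h, 6 at HF1h, 7 at HF30min, 3 at LF30min, 7 for HF3h against LF3h, 1 for HF against LF at 1 h and 1 at 30 min, 9 for HF3h against HF1h, 9 for LF3h against LF1h, 5 for HF1h against HF30min, 4 for LF1h against LF30min and 22 across the pools.

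With probe sets averaged per gene 6 were called at HF1h, 4 at HF30min, 5 for HF3h against LF3h, 1 for HF1h against LF1h, 5 for LF3h against LF1h and 1 for LF1h against LF30min. Without probe sets that end in _s_at, _x_at or _a_at, which left 32 genes, 8 were called at HF3h, 5 at LF3h, 2 at LF1h, 0 at HF30min, 1 for HF3h against HF1h, 1 for LF3h against LF1h, 0 for HF1h against HF30min and 8 across the pools. Quantile normalization gave 5 for HF3h against LF3h.

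Fitted on the compared arrays only, no gene was called at HF30min, HF1h or LF1h, for HF1h against HF30min or for LF3h against LF1h (0 each), and 1 for HF3h against HF1h and for HF3h against LF3h.

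At an adjusted p under 0.01, 1 was called at HF30min, 1 at LF1h, 1 for LF3h against LF1h, 0 for HF3h against LF3h, 0 for HF1h against HF30min and 7 across the pools. With a minimum of 1.5-fold, 7 remained at HF3h, 5 at LF3h, 1 at HF1h, 1 for HF3h against LF3h, 1 for HF3h against HF1h, 1 for HF1h against HF30min and 0 at HF30min, at LF1h and for LF3h against LF1h. With the study's minimum of 2-fold, 1 remained at HF3h and 0 elsewhere. Causes of these shifts were not tested beyond what each setting leaves out.

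Replicate numbers named technical arrays and did not pair pools: over 21 pairs of pools the deviations of first arrays correlated at -0.19 to 0.15. With the replicate block 11 genes were called at HF3h, 6 at LF3h, 3 at HF1h, 3 at LF1h, 2 at HF30min, 0 at LF30min, 2 for HF3h against LF3h, 2 for HF3h against HF1h, 1 for HF1h against HF30min, 1 for LF3h against LF1h and 11 across the pools.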
